A study of Mus musculus with 36 samples.

Results

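The 8 genes described here encode the pore and a gatekeeper of the mitochondrial calcium uniporter, an inner-membrane cation exchanger, the outer-membrane channels that let calcium reach them, and a tether to the endoplasmic reticulum. They are Mcu, Mcub, Micu2, Letm1, Vdac1, Vdac2, Vdac3 and Rmdn3, chosen by name, and all 8 were found among the 21968 genes of the count table. They were followed in 36 mouse oocytes at the germinal vesicle stage, each sequenced as a library of its own. Of these, 18 oocytes from 4 mice (a to d) carry the genotype label Drp1_KO and 18 oocytes from 5 mice (1 to 5) the label Drp1_WT. Drp1, encoded by Dnm1l, is a dynamin-family GTPase that pinches mitochondria in the course of their fission, and the series title speaks of its depletion in the oocyte. The sources used here do not give strain, age, the promoter of any Cre transgene or the deleted exons. The comparison asks whether transcripts for mitochondrial calcium handling differ between oocytes of the labels.

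Calcium released from the endoplasmic reticulum crosses the outer mitochondrial membrane through the VDAC channels and enters the matrix through the uniporter, driven by the membrane potential. MCU forms the pore of the uniporter, MCUB is a paralogue that lowers its conductance, EMRE (encoded by Smdt1) is needed for it to conduct, and MICU2 helps to keep it shut at resting calcium. In the egg, sperm set off repeated calcium waves, and uptake of that calcium by mitochondria is coupled to the making of ATP.

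Dnm1l was examined first because it checks the labels. In libraries labelled Drp1_KO it had 144, 204 and 274 CPM (counts scaled to a fixed library total; lowest, median and highest oocyte), against 116, 272 and 322 CPM in libraries labelled Drp1_WT. The 5 Drp1_WT oocytes in tubes 11 to 15, from mouse 3 and mouse 4, held 116 to 156 CPM of Dnm1l. That goes against their label. By the edgeR test on mice described below, the difference in Dnm1l did not pass (log2 fold change -0.21, SE 0.19, adjusted p = 0.706). Without those 5 libraries, singled out by their Dnm1l, the log2 fold change was -0.47 (SE 0.11, adjusted p = 0.519 by edgeR). Dnm1l thus did not settle the labels, and every direction below is drawn from libraries as labelled. Totals ran from 3178509 to 7406895 counts per oocyte. The 12 oocyte markers summed to 16790 to 31891 CPM in 35 libraries and to 4655 CPM in tube 10 of mouse b, labelled Drp1_KO. Most of that sum was Oosp1, at 3273 CPM in tube 10 against a median of 2241 CPM over all libraries. Each of the other oocyte markers was at its lowest in tube 10, such as Zp3 at 13.5 CPM and Figla at 0. The 13 markers of immune, stromal and endothelial cells summed to 578 CPM in that tube, against 29.4 to 70.9 CPM in the others. There, the macrophage genes Lyz2 and Adgre1 stood at 440 and 34.5 CPM, against at most 0.852 and 0.169 CPM elsewhere, and transcripts of the mitochondrial genome took 5.61% of counts, against 0.140% to 0.669%. The 14 granulosa and cumulus markers summed to 83.8 to 170.02 CPM in libraries labelled Drp1_KO and to 96.8 to 169.6 CPM in those labelled Drp1_WT. The median of Foxl2, Amh and Amhr2 was 0, while Cyp19a1 and Nr5a2 had medians of 61.5 and 32.6 CPM. Fshr, Cyp11a1, Hsd3b1 and Inha had medians of 1.68 to 5.50 CPM, and their highest libraries reached 24.0 to 27.1 CPM. Tube 10 is included unless stated, and many results are also given without it or with its own value beside them.

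Several of the 8 genes are close relatives, so their sequences set which reads can be told apart. The lines below hold the 90 aligned coding bases in which the Vdac genes are most alike, from GENCODE M21 transcripts on GRCm38, 5′ to 3′ on the coding strand, with capitals at the 30 positions that are not the same in all of them. They lie at chr11:52384027-52385621 (plus strand), chr14:21838568-21840457 (plus strand) and chr8:22579104-22580390 (minus strand), and each stretch crosses an intron.
Vdac1: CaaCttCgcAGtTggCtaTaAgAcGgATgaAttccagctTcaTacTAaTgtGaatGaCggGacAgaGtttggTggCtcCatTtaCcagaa
Vdac2: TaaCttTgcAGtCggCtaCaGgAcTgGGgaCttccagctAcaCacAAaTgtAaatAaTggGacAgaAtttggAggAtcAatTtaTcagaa
Vdac3: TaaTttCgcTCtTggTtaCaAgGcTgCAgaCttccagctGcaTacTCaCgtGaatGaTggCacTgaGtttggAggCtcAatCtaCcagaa
Even here Vdac2 and Vdac3 differed at 23 bases, and Vdac1 differed from each at 20. Over whole coding sequences, Vdac1 and Vdac2 were identical at 70.3% of aligned bases, Vdac1 and Vdac3 at 65.96%, and Vdac2 and Vdac3 at 71.5%, with no shared run over 17 bases. Reads of 100 bases, the length in the labels' protocols, therefore cannot match a second Vdac gene exactly, though 0.916% of the 100-base windows of Vdac2 occur in the pseudogene Gm7832.

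The pore gene and its paralogue are shown where the DIME motif, which lines the mouth of the uniporter pore, is encoded, with the 4 codons in capitals. They lie in one exon each, at chr10:59454976-59455065 for Mcu and chr3:129916969-129917058 for Mcub, both on the minus strand.
Mcu: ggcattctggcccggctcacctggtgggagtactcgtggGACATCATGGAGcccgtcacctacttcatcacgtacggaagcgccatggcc
Mcub: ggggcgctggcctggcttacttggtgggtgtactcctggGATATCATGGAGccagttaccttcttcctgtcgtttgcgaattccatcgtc
The 12 bases of the codons differed at 1 base and the 90 bases at 25, and the whole coding sequences were identical at 57.1% of aligned bases. No 100-base window of either transcript occurs in another annotated transcript.

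Vdac3 has a closer relative. Vdac3-ps1, annotated as a pseudogene of 853 bases at chr13:18030741-18031593 on the minus strand, matched the Vdac3 transcript at 849 bases (99.5%). The lines below hold the 90 bases with the most differences between them, in capitals, at chr8:22580446-22580535 and chr13:18031149-18031238, both on the minus strand.
Vdac3: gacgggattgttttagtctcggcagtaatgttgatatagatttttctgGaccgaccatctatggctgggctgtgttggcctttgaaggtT
Vdac3-ps1: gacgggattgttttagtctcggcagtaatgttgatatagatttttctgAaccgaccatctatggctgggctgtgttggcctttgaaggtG
These 2 bases are among only 4 that tell the genes apart over the pseudogene. Of the 1324 windows of 100 bases in the Vdac3 transcript, 455 (34.4%) occur unchanged in Vdac3-ps1 or in a further pseudogene, Gm7591. The count table gave Vdac3-ps1 more counts than Vdac3 in every library, so values of Vdac3 below are uncertain.

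None of the 8 genes passed an adjusted p of 0.05 between the labels, in a test across the 12812 genes that passed the filter on low counts, as all 8 genes did. The test was edgeR's quasi-likelihood test on counts summed per mouse with Benjamini-Hochberg adjustment, and it called 0.0156% of all tested genes. Levels per mouse below are CPM with TMM factors, and levels per oocyte are CPM of the oocyte's own total. CPM is a share of a library, so a change in the total RNA of an oocyte does not show. At an unadjusted p under 0.05, 1 of the 8 genes (Mcub) was reached, against 9.69% of all tested genes. The mice of the labels overlapped for all 8 genes, against 2.56% of tested genes whose mice did not (1.27% higher and 1.29% lower in Drp1_KO). DESeq2 and limma-voom on single oocytes also called 0 of the 8, against 0.276% and 0.0781% of the genes each tested. The median log2 fold change of the 8 genes was 0.03, beside -0.003 over all tested genes, and the median of its size was 0.23, beside 0.18.

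**Figure D1:**
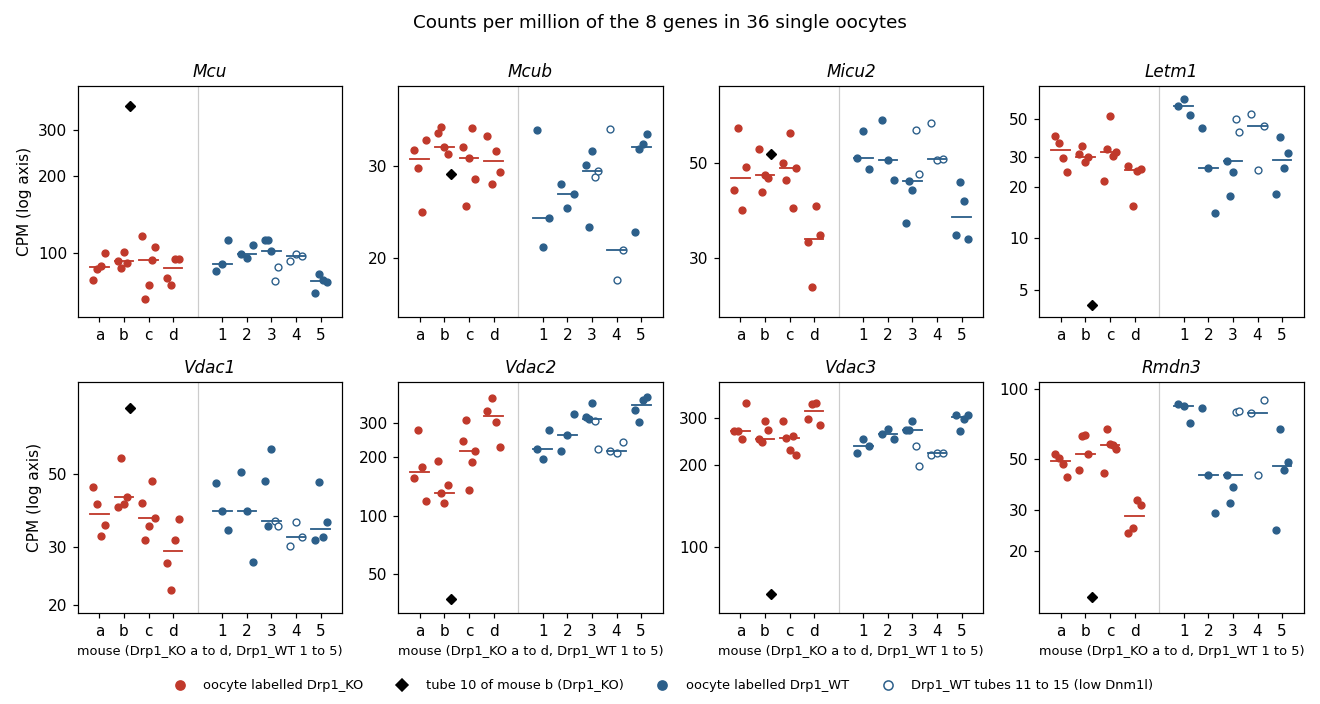
Level in CPM (log axis) of each gene in every oocyte, by mouse, with oocytes labelled Drp1_KO on the left (mice a to d) and those labelled Drp1_WT on the right (mice 1 to 5). Lines mark the median of a mouse, the black diamond is tube 10 of mouse b and open circles are the 5 Drp1_WT oocytes with little Dnm1l. Tube 10 is highest for Mcu and Vdac1 and lowest for Letm1, Vdac2, Vdac3 and Rmdn3, and the labels overlap for every gene.

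The uniporter genes are taken first. Mcu, the pore, had 66.2, 92.2 and 373 CPM (lowest, median and highest) in Drp1_KO oocytes, against 69.9, 93.8 and 112 CPM in Drp1_WT oocytes. The highest value was tube 10 of mouse b, at 4.03 times the median of the other libraries, and without it the Drp1_KO oocytes ended at 116 CPM and the labels covered the same range. Per mouse, Mcu averaged 103 ± 27.9 CPM in Drp1_KO mice (SD, n = 4) and 90.8 ± 6.68 CPM in Drp1_WT mice (SD, n = 5). The log2 fold change was 0.19 (SE 0.15, adjusted p = 0.658 by edgeR), and without tube 10 it was -0.015 (SE 0.095, adjusted p = 0.963). The levels of macrophage genes and of the mitochondrial genome in that tube, given above, moved with it, and their part in the value was not tested.

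Mcub, the paralogue that lowers the conductance of the pore, had the smallest p of the 8 genes. Its oocytes had 24.5, 31.9 and 35.7 CPM under the Drp1_KO label, against 18.1, 28.2 and 35.4 CPM under the Drp1_WT label. The upper ends of the labels nearly met, while 6 of 18 Drp1_WT oocytes lay below every Drp1_KO oocyte. Drp1_KO mice stood at 29.9, 34.5, 29.04 and 34.5 CPM (a to d), against 25.4, 25.3, 27.7, 22.9 and 31.2 CPM in Drp1_WT mice (1 to 5). Only mouse 5, labelled Drp1_WT, reached into the range of the Drp1_KO mice. The difference on the log2 scale was 0.27 (SE 0.12, 95% interval 0.0028 to 0.54), and with an adjusted p of 0.510 by edgeR it did not pass. It was 0.26 without tube 10 (adjusted p = 0.583) and 0.19 without the 5 Drp1_WT libraries low in Dnm1l (adjusted p = 0.892).

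Mcub and Mcu also enter the uniporter together, so their ratio is of interest. Per base of merged exons, Mcub had 1.78 ± 0.123 times the level of Mcu in Drp1_KO mice (SD, n = 4) and 1.58 ± 0.29 times that level in Drp1_WT mice (SD, n = 5). The mice of the labels overlapped, with 1.61 to 1.90 in Drp1_KO and 1.37 to 2.08 in Drp1_WT. The lowest Drp1_KO value was that of mouse b, which includes tube 10. That tube had a ratio of 0.410, against a median of 1.82 over the Drp1_KO oocytes. In plain counts it had 0.078 of Mcub per count of Mcu, against 0.324 to 0.410 in the other oocytes of mouse b. The ratio depends on the length used, because Mcu has 6936 merged exon bases but 2872 in its longest coding transcript. With that transcript it was 0.739 ± 0.0508 in Drp1_KO mice and 0.655 ± 0.12 in Drp1_WT mice (SD), so which paralogue is the more abundant was not settled by the counts.

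Micu2 (chr14:57916261-57999262, GRCm38), a gatekeeper of the pore, had 25.7, 46.02 and 60.4 CPM in Drp1_KO oocytes, against 33.3, 47.9 and 63.3 CPM in Drp1_WT oocytes. The ranges lay almost over each other. Per mouse it averaged 45.8 ± 6.07 CPM in Drp1_KO (SD, n = 4) and 47.8 ± 5.61 CPM in Drp1_WT (SD, n = 5), with a log2 fold change of -0.06 (SE 0.13, adjusted p = 0.875 by edgeR). Mouse d was the lowest Drp1_KO mouse at 37.0 CPM and mouse 5 the lowest Drp1_WT mouse at 39.3 CPM. Smdt1, the gene of EMRE, was just as close. It averaged 48.8 CPM in Drp1_KO mice and 47.1 CPM in Drp1_WT mice (log2 fold change 0.05, SE 0.12, adjusted p = 0.883 by edgeR).

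Letm1 and Rmdn3 varied most from oocyte to oocyte. Letm1 (chr5:33739673-33782817), an inner-membrane protein that exchanges cations for protons, had 4.09, 29.9 and 52.1 CPM in Drp1_KO oocytes, against 14.04, 35.5 and 65.03 CPM in Drp1_WT oocytes. Tube 10 held the lowest value, and the next Drp1_KO oocyte had 15.4 CPM. The 4 highest oocytes of all were labelled Drp1_WT, 3 from mouse 1 and 1 from mouse 4. Drp1_KO mice stood at 34.1, 27.9, 34.5 and 25.7 CPM, against 57.9, 27.8, 31.9, 38.7 and 29.1 CPM in Drp1_WT mice. Mouse 1 stood well above the other 8 mice. The log2 fold change was -0.28 (SE 0.20, adjusted p = 0.626 by edgeR), and -0.06 without mouse 1 (adjusted p = 0.945).

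Rmdn3 (chr2:119137001-119157034), also known as PTPIP51, sits in the outer membrane and ties mitochondria to VAPB of the endoplasmic reticulum. Its oocytes had 12.7, 48.96 and 67.2 CPM under the Drp1_KO label, against 24.7, 57.9 and 89.8 CPM under the Drp1_WT label. Among Drp1_WT oocytes, 9 of 18, from all 5 mice, lay above every Drp1_KO oocyte, while other oocytes of mice 2 to 5 lay inside the Drp1_KO range. Of these 9, 4 were among the 5 Drp1_WT libraries low in Dnm1l. Drp1_KO mice stood at 49.7, 50.4, 56.1 and 31.8 CPM, against 78.4, 50.7, 53.6, 66.1 and 46.8 CPM in Drp1_WT mice. Mouse c, labelled Drp1_KO, exceeded 3 of the Drp1_WT mice. The log2 fold change was -0.33 (SE 0.18, 95% interval -0.73 to 0.07), and the adjusted p was 0.550 by edgeR. It was -0.20 without the 5 Drp1_WT libraries low in Dnm1l (adjusted p = 0.909) and -0.18 without mouse d (adjusted p = 0.850).

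The VDAC channels differed among themselves in how they lay between the labels. Vdac1, whose protein also binds hexokinase, had 22.2, 38.1 and 79.5 CPM in Drp1_KO oocytes, against 27.02, 35.6 and 59.6 CPM in Drp1_WT oocytes. The highest was again tube 10, at 2.21 times the median of the other libraries, and the next Drp1_KO oocyte had 56.1 CPM. Per mouse it averaged 40.2 ± 8.72 CPM in Drp1_KO and 37.1 ± 3.67 CPM in Drp1_WT (SD, n = 4 and 5). The log2 fold change was 0.12 (SE 0.15, adjusted p = 0.772 by edgeR), 0.03 without tube 10 and -0.029 without the 5 Drp1_WT libraries low in Dnm1l.

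Vdac2, a channel that also holds BAK at the outer membrane, had 37.0, 191 and 404 CPM in Drp1_KO oocytes, against 197, 291 and 409.6 CPM in Drp1_WT oocytes. Without tube 10 the lowest Drp1_KO oocyte had 116 CPM. Of the other 17 Drp1_KO oocytes, 9, from mice a, b and c, lay below every Drp1_WT oocyte, while those of mouse d, at 225.2 to 404 CPM, lay within the Drp1_WT range. Drp1_KO mice stood at 195, 136, 213 and 360 CPM (a to d), against 225, 255, 297, 210.2 and 376 CPM in Drp1_WT mice (1 to 5). The highest mouse of each label, d and 5, was the one with tubes 27 to 30. Over all mice the log2 fold change was -0.27 (SE 0.24, 95% interval -0.79 to 0.25, adjusted p = 0.689 by edgeR).

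Because tube numbers went with Vdac2, the comparison was repeated within them. In tubes 1 to 15 alone, 3 Drp1_KO against 4 Drp1_WT mice, the log2 fold change of Vdac2 was -0.44 (SE 0.16, adjusted p = 0.449 by edgeR), and 2 of the 8 genes (Vdac2 and Mcub) had an unadjusted p under 0.05, against 10.3% of genes tested there. With the tube set as a term it was -0.36 (SE 0.14, adjusted p = 0.310), and 3 of the 8 genes (Vdac2, Mcub and Rmdn3) had an unadjusted p under 0.05, against 13.9% of all tested genes. In tubes 27 to 30, with 1 mouse of each label and no test, Vdac2 averaged 320.2 CPM over the oocytes of mouse d and 366 CPM over those of mouse 5. With TMM factors, the scale of the fits, these mice were closer, at 360 and 376 CPM. The log2 fold change over both tube sets, with no term for them, was also taken with a mouse left out. The value was -0.59 without mouse d (adjusted p = 0.682), -0.13 without mouse 5 (adjusted p = 0.808) and -0.09 without mouse b (adjusted p = 0.917). None of these passed, and the size of the difference depended on which mice were used.

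**Figure D2:**
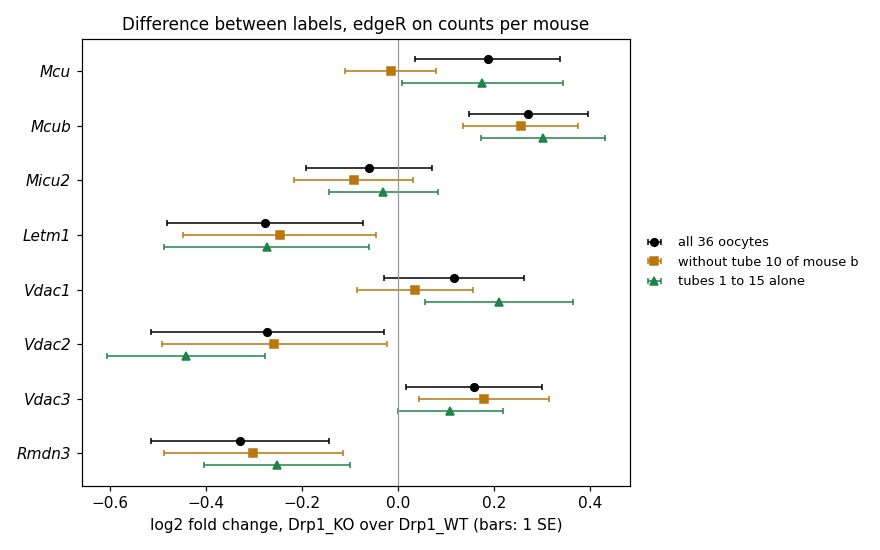
Log2 fold change of each gene, Drp1_KO over Drp1_WT, from edgeR on counts summed per mouse, with bars of 1 SE, for all 36 oocytes, without tube 10 of mouse b and for tubes 1 to 15 alone. Mcu moves to -0.015 without tube 10, Vdac2 moves to -0.44 in tubes 1 to 15, and the others stay on their side of 0 in these fits.

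Vdac3, the remaining isoform, had 67.2, 268 and 339 CPM in Drp1_KO oocytes, against 199.8, 257 and 307 CPM in Drp1_WT oocytes. Without tube 10 the lowest Drp1_KO oocyte had 218 CPM and the labels overlapped over most of their range. Per mouse it averaged 277 ± 53.3 CPM in Drp1_KO and 248 ± 35.6 CPM in Drp1_WT (SD, n = 4 and 5), with a log2 fold change of 0.16 (SE 0.14, adjusted p = 0.690 by edgeR). It was 0.021 without mouse d (adjusted p = 0.978) and 0.035 without the 5 Drp1_WT libraries low in Dnm1l (adjusted p = 0.984). Vdac3-ps1 was counted at 90.9, 375 and 456 CPM in Drp1_KO oocytes, against 299, 326 and 466 CPM in Drp1_WT oocytes. It kept nearly the same ratio to Vdac3 throughout, 1.21 to 1.52 times in Drp1_KO oocytes and 1.22 to 1.52 times in Drp1_WT oocytes. With the counts of both added, an alternative chosen after seeing the data, the log2 fold change was 0.19 (SE 0.14, adjusted p = 0.634 by edgeR). Whether any of these reads came from the pseudogene was not tested.

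The counts of Vdac2 and Vdac3 were also set against each other, a ratio chosen after the values were seen and given with no test. Vdac2 had 0.672, 0.557, 0.879 and 1.02 counts per count of Vdac3 in Drp1_KO mice (a to d), against 0.988, 1.04, 1.22, 1.01 and 1.24 in Drp1_WT mice (1 to 5). Mice a, b and c lay below every Drp1_WT mouse, and mouse d lay among them. Tube 10 lay at 0.55, inside the range of the other oocytes of mouse b (0.40 to 0.77), although each gene alone was lowest there.

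Levels of different genes were compared per kilobase of merged exons, as means over the oocytes of each of the 9 mice. Vdac2 stood at 52.4 ± 15.7 CPM per kb (SD, n = 9) and Vdac3 at 47.9 ± 5.84 CPM per kb, followed by Mcub at 22.04 ± 1.97 CPM per kb. Micu2 (15.3 ± 2.34), Rmdn3 (15.2 ± 4.22), Vdac1 (14.8 ± 2.39) and Mcu (14.1 ± 2.94 CPM per kb) formed a close group, and Letm1 was lowest at 3.51 ± 1.13 CPM per kb. Of the 7 neighbours in this order, 3 differed beyond the spread between mice, by an exact two-sided paired permutation test. Vdac3 exceeded Mcub, Mcub exceeded Micu2 and Mcu exceeded Letm1, each in 9 of 9 mice. Each had p = 0.00391, the smallest this permutation test can give, and an adjusted p of 0.00911 over the 7 pairs. The pairs and their order came from the same values, and the length is a constant that mice do not vary. The p therefore measures only how alike the mice were at the length chosen. The step from Mcu to Letm1 was 1.77 on the log2(CPM per kb + 1) scale, and the step from Vdac3 to Mcub was 1.08.

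The order of the middle genes rested on the length chosen. With the longest coding transcript of each gene, Vdac3 came first at 182 CPM per kb and Vdac2 second at 128 CPM per kb, and their difference passed the same exact permutation test (adjusted p = 0.00684). Mcu then followed them at 34.2 CPM per kb and Mcub, with one length of 1318 bases, now below Mcu and Rmdn3, at 22.04 CPM per kb. Under both lengths the outer-membrane channels Vdac2 and Vdac3 were the highest and Letm1 the lowest, and Vdac1 lay well below the other channels at 14.8 or 19.1 CPM per kb. The place of Vdac3 rests on how its reads were divided with Vdac3-ps1.

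**Figure D3:**
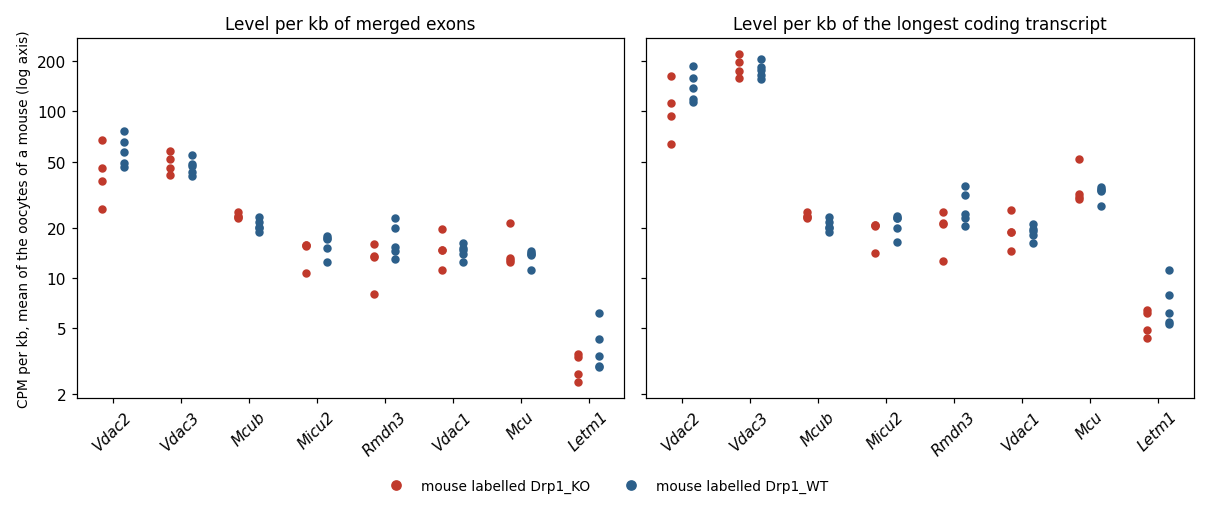
Level of each gene in CPM per kb (log axis), on the left per kb of merged exons and on the right per kb of the longest coding transcript, with 1 point per mouse, mice labelled Drp1_KO left of those labelled Drp1_WT. Vdac2 and Vdac3 are highest and Letm1 is lowest under both lengths, while Mcu moves up from the middle group on the right.

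The spread among oocytes of one mouse, without tube 10, ran from 0.14 (Vdac3) to 0.45 (Letm1) as an SD on the log2 scale. Counting error alone gives 0.04 for Vdac3 and 0.12 for Letm1. The other values were 0.19 for Mcu, 0.22 for Micu2, 0.24 for Mcub, 0.27 for Vdac1, 0.34 for Vdac2 and 0.43 for Rmdn3. Among tested genes of all levels, 2.12% had a smaller SD than Vdac3 and 69.7% a smaller one than Letm1. These shares were not matched for level, and the SD includes counting error, so they do not rank the genes by steadiness. Mcu was lower in deeper libraries, with a Spearman correlation of -0.56 with the total count over the 36 oocytes, and the part of depth in the values of Mcu was not tested.

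Letm1 and Rmdn3 moved together across oocytes. Their Spearman correlation was 0.91 over the 36 oocytes, 0.90 over the 35 without tube 10 and 0.88 within tubes 1 to 15 without it. In mouse 2, tube 4 held 44.2 CPM of Letm1 and 83.0 CPM of Rmdn3, tube 5 held 25.8 and 42.8 CPM, and tube 6 held 14.04 and 29.2 CPM. In mouse 4, tube 13 held 53.7 CPM of Letm1 and 78.7 CPM of Rmdn3 while tube 14 held 25.1 and 42.4 CPM. Oocytes of one mouse could thus lie at either end for both genes. The share of the mitochondrial genome ran against both, with a correlation over the 35 oocytes of -0.84 for Letm1 and -0.81 for Rmdn3, and the sum of the oocyte markers ran with them (0.70 and 0.64). In mouse 2, the mitochondrial share was 0.140% in tube 4 and 0.556% in tube 6, and in mouse 4 it was 0.160% in tube 13 and 0.422% in tube 14. The part of either measure in the values of Letm1 and Rmdn3, also between the labels, was not tested. Vdac3 ran the other way, with a correlation of -0.68 with Letm1 and -0.67 with Rmdn3 over the 35 oocytes, and 0.56 with the mitochondrial share. All correlations here are descriptions with no p, since the oocytes share mice and each library shares one total and one depth among its genes.

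**Figure D4:**
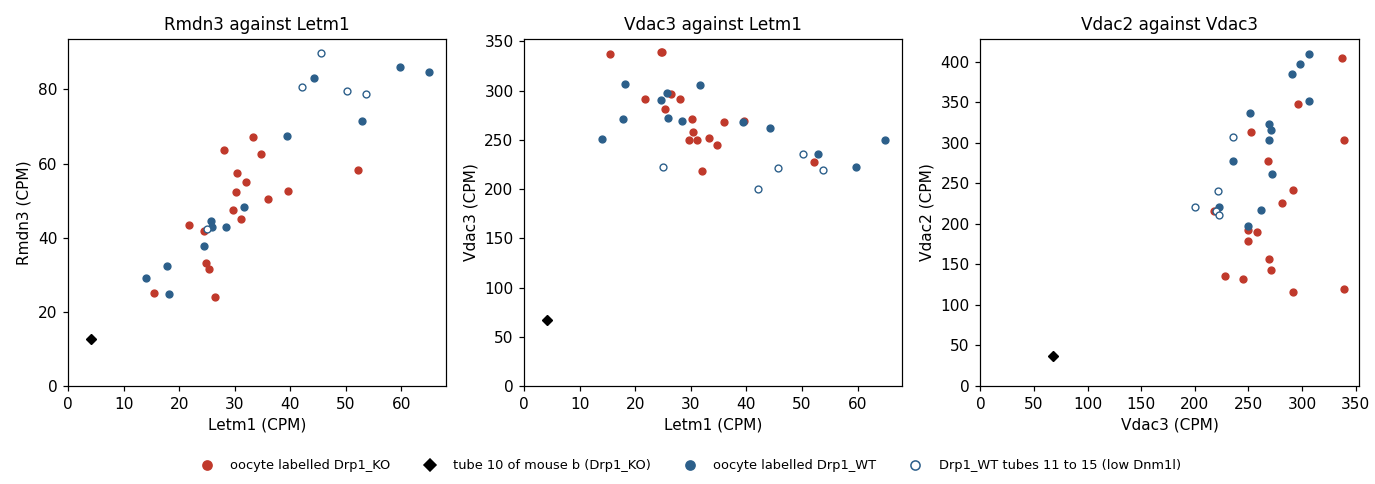
Rmdn3 against Letm1, Vdac3 against Letm1 and Vdac2 against Vdac3, in CPM, with 1 point per oocyte, coloured by label, the black diamond being tube 10 of mouse b and open circles the 5 Drp1_WT oocytes with little Dnm1l. Rmdn3 rises with Letm1 under both labels, and in the panel of Vdac2 against Vdac3 many Drp1_KO oocytes lie below the Drp1_WT oocytes of the same Vdac3.

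Tube sets differed as well. In tubes 27 to 30, Micu2 averaged 33.0 ± 5.74 CPM in the 4 oocytes of mouse d and 38.4 ± 5.72 CPM in the 4 of mouse 5, against 48.1 ± 6.67 and 51.1 ± 7.75 CPM in Drp1_KO and Drp1_WT oocytes of tubes 1 to 15 (SD over oocytes, without tube 10). Rmdn3 averaged 28.4 CPM in mouse d and 46.3 CPM in mouse 5, against 53.6 and 62.9 CPM in the tubes 1 to 15 of their labels. Vdac3 went the other way, at 314 CPM in mouse d and 295 CPM in mouse 5, against 264 and 244 CPM. These differences between tube sets were not tested, and tubes 27 to 30 rest on 1 mouse of each label.

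Genes whose pattern over the 36 oocytes was most like each of the 8 were named by their Spearman correlation of log2(CPM + 1) among tested genes, again as a description of libraries that share mice and depth. Mcu was most like Meis2 (0.81) and Ube2k (0.72), Mcub most like Pla1a (0.59) and Bcor (0.58), and Micu2 most like Setd6 (0.77) and Api5 (0.76). Letm1 was most like Anapc5 (0.95) and Tspan33 (0.94), and Rmdn3 most like Vil1 (0.95) and Lrrc59 (0.95). Vdac1 was most like Scnn1b (0.59) and Lgals8 (0.59), Vdac2 most like Rora (0.82) and Iltifb (0.82), and Vdac3 most like Orc4 (0.91) and Zfp958 (0.90). Without tube 10, the first partner of each gene but Micu2 still ranked 1. Setd6 and Api5 then ranked 8 and 19 for Micu2, with correlations of 0.77 and 0.75. Lgals8 ranked 6 for Vdac1, Bcor 5 for Mcub, Ube2k 4 for Mcu and Zfp958 4 for Vdac3, and the correlation of Vdac1 with Scnn1b was 0.70.

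The wider pathway was described with 4 lists of genes, and none of their tested members passed an adjusted p of 0.05 by edgeR. Of 14 genes for mitochondrial calcium uptake and release, 13 were tested (Slc8b1 was too low), with a median log2 fold change of 0.04, and 0 were higher and 1 lower at an unadjusted p under 0.05. The background at that p was 4.89% of tested genes higher and 4.81% lower. The 1 gene was Afg3l2, a subunit of the inner-membrane protease that degrades unassembled EMRE, at 44.7 ± 6.52 CPM in Drp1_KO mice and 58.8 ± 15.7 CPM in Drp1_WT mice (SD, adjusted p = 0.508). All 15 calcium-regulated mitochondrial proteins were tested, with a median of -0.11, and 0 were higher and 2 lower at that p. They were Pdp2, a phosphatase of pyruvate dehydrogenase, at 0.788 ± 0.180 CPM in Drp1_KO mice and 1.35 ± 0.275 CPM in Drp1_WT mice (SD, adjusted p = 0.499), and Rhot1, the calcium-binding GTPase Miro1 of mitochondrial transport. Pdp2 lay near the floor, at 0 to 2.69 CPM per oocyte. Its log2 fold change was -0.76, and -0.39 with oocytes thinned to the smallest total (adjusted p = 0.665 by edgeR). Rhot1 had 170.4 ± 22.3 CPM in Drp1_KO mice and 208 ± 33.3 CPM in Drp1_WT mice (SD, log2 fold change -0.29, adjusted p = 0.509).

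Of 19 partners of VDAC at the outer membrane and pore, 14 were tested, with a median log2 fold change of 0.05, and 0 reached an unadjusted p under 0.05 in either direction. Hk1, Bak1, Bcl2, Ckmt1 and Ckmt2 did not pass the filter on low counts, with Hk1 at no more than 1.36 CPM and Ckmt2 at 0 counts in all 36 libraries. All 23 genes of contacts between endoplasmic reticulum and mitochondria were tested, with a median of 0.10. At that p, 2 were higher and 0 lower, against 4.89% and 4.81% of all tested genes. Mospd2, a protein of the endoplasmic reticulum that tethers it to other organelles, averaged 57.6 ± 3.79 CPM in Drp1_KO mice and 47.5 ± 4.83 CPM in Drp1_WT mice (SD, log2 fold change 0.28, adjusted p = 0.499). Its mice did not overlap, beside 1.27% of all tested genes that lay apart and higher in Drp1_KO. Fundc1, an outer-membrane receptor for mitophagy, averaged 17.3 ± 3.33 CPM in Drp1_KO mice and 13.3 ± 1.178 CPM in Drp1_WT mice (SD, log2 fold change 0.38, adjusted p = 0.499). Tube 10 held the highest Fundc1 of all libraries, 54.97 CPM, and without it the log2 fold change was 0.21 (adjusted p = 0.635).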

How the data were processed

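Per the labels' protocols, cDNA of each lysed oocyte was made with a SMARTer Ultra Low Input kit, and Nextera XT libraries were read single-end on a HiSeq. The authors deposited raw counts per gene. Per the submitters' processing notes, GRCm38 was the build and Picard, featureCounts, STAR and Subread 1.5.2 were used, without the step of each, and the treatment of strand, of reads with several matches and of PCR copies is not given in the sources used here. Of 21968 gene IDs, 21876 matched GENCODE M21. Same-labelled oocytes differed by more than sampling noise in all 306 pairs. The members and gene lists were chosen with earlier results of these data known.

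Counts were summed per mouse (n = 4 and 5) and tested in R 4.3.3 by a robust quasi-likelihood fit of edgeR 4.0.16, after filterByExpr by label and TMM scaling. Whether the mice were litter mates is not known. Neighbours by level were compared with scipy 1.17.1 on log2 values with a pseudocount of 1. Alternatives were DESeq2 1.42.0, limma 3.58.1 (voom with mouse as a random effect, or trend), other factors and filters, thinning, libraries, tube sets or mice left out, and another length. Named genes were the 8 members, Dnm1l, Smdt1, up to 3 genes a list with the smallest unadjusted p under 0.05, and the 2 genes most like each member; some genes are not reported here. The model fits of edgeR, DESeq2 and limma were tested on simulated data.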

Additional observations from a re-analysis of the deposited data

Results flagged for a closer look

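Mcu in mouse 5, labelled Drp1_WT, stood at 79.2 CPM (with TMM factors), apart from the other 4 Drp1_WT mice, which lay between 91.1 and 95.5 CPM. Its distance from the nearest of them took a share of 0.726 of the whole range, above the 95% critical value of 0.710 for 5 mice. This was 1 of 22 groups of mice looked at, and chance picks about 1 in 20. Mouse 5 is the Drp1_WT mouse of tubes 27 to 30, and its 4 oocytes ranged from 69.9 to 83.0 CPM, so no single oocyte set the value. Mouse d, the Drp1_KO mouse of those tubes, was not low on the same scale, at 96.3 CPM with TMM factors. Its oocytes had 74.7 to 94.8 CPM of their own totals.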

How the results depend on the processing

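Under the 25 alternatives to the fit, none of the 8 genes passed the threshold, and 193 of 200 log2 fold changes kept their direction. Mcu changed sign without tube 10 (-0.015), and Vdac1 without Drp1_WT tubes 11 to 15 (-0.029). Both changed sign with 7 libraries left out together (-0.091 for Mcu, -0.117 for Vdac1). These 7 were tube 10 of mouse b, Drp1_WT tubes 11 to 15 and tube 29 of mouse 5. The cause of these changes was not tested. With 1 mouse left out in turn, Mcu ranged from -0.020 to 0.28, Vdac1 from -0.041 to 0.20 and Micu2 from -0.12 to 0.029. Smdt1, near 0, became -0.031 with totals alone and -0.0091 without Drp1_WT tubes 11 to 15. Over all tested genes, edgeR called 2, DESeq2 38, voom 10, and edgeR in tubes 1 to 15 alone 4, with 1 to 3 when a mouse was left out. With the longest coding transcript as length, Vdac2 minus Vdac3 became -0.59, Micu2 minus Rmdn3 -0.14, Rmdn3 minus Vdac1 0.23 and Vdac1 minus Mcu -0.78, and Mcub minus Micu2 fell short of the threshold at 0.12. Rmdn3 minus Vdac1 was 0.029 without tube 10 and ranged from -0.11 to 0.046 with a mouse left out, where Vdac2 minus Vdac3 ranged from -0.00030 to 0.14. No paired analysis was possible because Drp1_KO mice carry letters and Drp1_WT mice carry numbers. With 4 and 5 mice, the 95% interval of the log2 fold change of Vdac2 ran from -0.79 to 0.25, and differences inside it are not excluded.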
